A study of Mus musculus with 36 samples.

Results

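Livers of mice given cyclosporin A for 7 days were compared with livers of mice given olive oil, the oil in which the drug was dissolved. The 8 libraries are 4 labelled CsA7 and 4 labelled VEHICLE, of 36 libraries from 9 groups in the whole series. Liver RNA was measured by QuantSeq, a method that reads only the 3' end of each messenger RNA and here tagged the molecules with identifiers. All mice were C57BL/6. CsA7 mice received 15 mg per kg body weight of cyclosporin A by oral gavage and are labelled acute cholestasis. VEHICLE mice received olive oil by gavage and are labelled healthy. The study also collected CsA28 livers, after 28 days of the same drug and dose, and healthy control livers after sham surgery (SHAM) and on a control diet (CTLD), each from 4 mice, which are set beside the comparison below. The labels give how long the drug was given but not how often, and they give neither the age and sex of the mice nor the hour of sampling. No day is given for the control livers. Genes entered the comparison where at least 4 of the 8 libraries had a normalized count of at least 10, which kept 10697 of the 29546 gene IDs. Of these, 16 reached the filter only through the CsA7 livers and 15 only through the VEHICLE livers. At the border, the fourth-highest value was 10.1 in the last gene kept and 9.96 in the first gene left out. All levels below are normalized counts, which compare libraries for 1 gene and not genes with each other. Fold changes are CsA7 over VEHICLE on the log2(normalized count + 1) scale, which understates the change of genes with low counts, and are given with their standard error.

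Cyclosporin A binds cyclophilins, a family of proline isomerases, and the complex blocks the phosphatase calcineurin, which otherwise activates NFAT factors in T cells. In the liver it also inhibits the bile salt export pump and can impair bile flow. Liver cells carry a circadian clock. In it the activators BMAL1 (gene Arntl) and CLOCK or NPAS2 switch on the Per and Cry repressors, the REV-ERB receptors (Nr1d1, Nr1d2) and the D-box activators Dbp, Tef and Hlf. REV-ERBs in turn repress Arntl, Npas2, Clock, Cry1 and Nfil3, so that activator and output genes peak at different hours. Hepatocytes secrete most plasma proteins, and their endoplasmic reticulum holds chaperones such as BiP (Hspa5), whose genes are raised when unfolded protein accumulates there.

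Each of the 8 libraries held 2431684 to 3770267 reads, recovered from the deposited values, and at least 1 read in 16434 to 18020 genes. The first principal component, with 29.6% of the variance, put all CsA7 libraries on 1 side and all VEHICLE libraries on the other. The second, with 22.5%, set VEHICLE 1 and 2 apart from VEHICLE 3 and 4. These 2 libraries had high levels of Saa1, an acute-phase protein of the liver: Saa1 was at 273, 384, 619 and 211 in the CsA7 livers, against 9848, 7126, 281 and 296 in the VEHICLE livers. Results are therefore also given without VEHICLE 1 and 2. Hepatocyte markers had a summed level of 94023 to 107847 in CsA7 and 109668 to 128987 in VEHICLE, without overlap. Of the 13 hepatocyte markers 0 passed the test in limma, 6 had an unadjusted p under 0.05, all lower, and edgeR and DESeq2 called 0 and 1. Their direction turned with the scaling, with a median log2 fold change of -0.24 as deposited and 0.11 after quantile normalization. Mitochondrially encoded genes were summed at 116037 to 156903 in CsA7 and 149886 to 190788 in VEHICLE; 0 of 13 were called by any of the 3 tools, and 10 had an unadjusted p under 0.05. Summed markers of T and NK cells were at 19.2 to 32.2 in CsA7 and 18.5 to 29.6 in VEHICLE, those of neutrophils at 10.1 to 21.5 in CsA7 and 5.36 to 301 in VEHICLE, and those of Kupffer cells at 729.8 to 1256 in CsA7 and 779 to 1257 in VEHICLE. The neutrophil sum was at 301 and 117 in VEHICLE 1 and 2, the livers with high Saa1, and at 7.66 and 5.36 in VEHICLE 3 and 4. In bulk liver, fewer cells of a type and less RNA per cell cannot be told apart. Nothing in the labels says how the 4 mice of a group were housed or handled, so p-values weigh differences only against the spread between these livers.

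At a Benjamini-Hochberg adjusted p under 0.05 in limma, 107 genes were higher and 168 lower in CsA7, together 2.57% of the genes tested (1.0% higher and 1.57% lower). The changes were mostly modest: 38 of the higher and 46 of the lower genes changed more than 2-fold. In 270 of the 275 called genes the 4 CsA7 values and the 4 VEHICLE values did not overlap, against 11.2% of all genes tested. The calls were made from the same 8 values, so this is a description and no separate support for them. Higher genes made up 38.9% of the calls as deposited. When libraries were instead scaled to equal total counts, the median of all genes moved to 0.13 on the log2 scale and 372 genes were called higher and 91 lower, which is 80.3% higher. Quantile normalization gave 156 higher and 161 lower, 49.2% higher. Which direction held more genes therefore depended on the scaling, and the genes below are reported with the deposited scaling. Of the 275 called genes, 85 were called in every fit that left out 1 of the 8 libraries and 190 were lost in at least 1 of these fits. Leaving out CsA7 1, CsA7 3, CsA7 4 or VEHICLE 2 lowered both counts by more than 1.5 times, to 46 higher and 92 lower, 55 and 84, 41 and 64, and 64 and 82; without VEHICLE 4 the lower genes numbered 95.

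**Figure D1:**
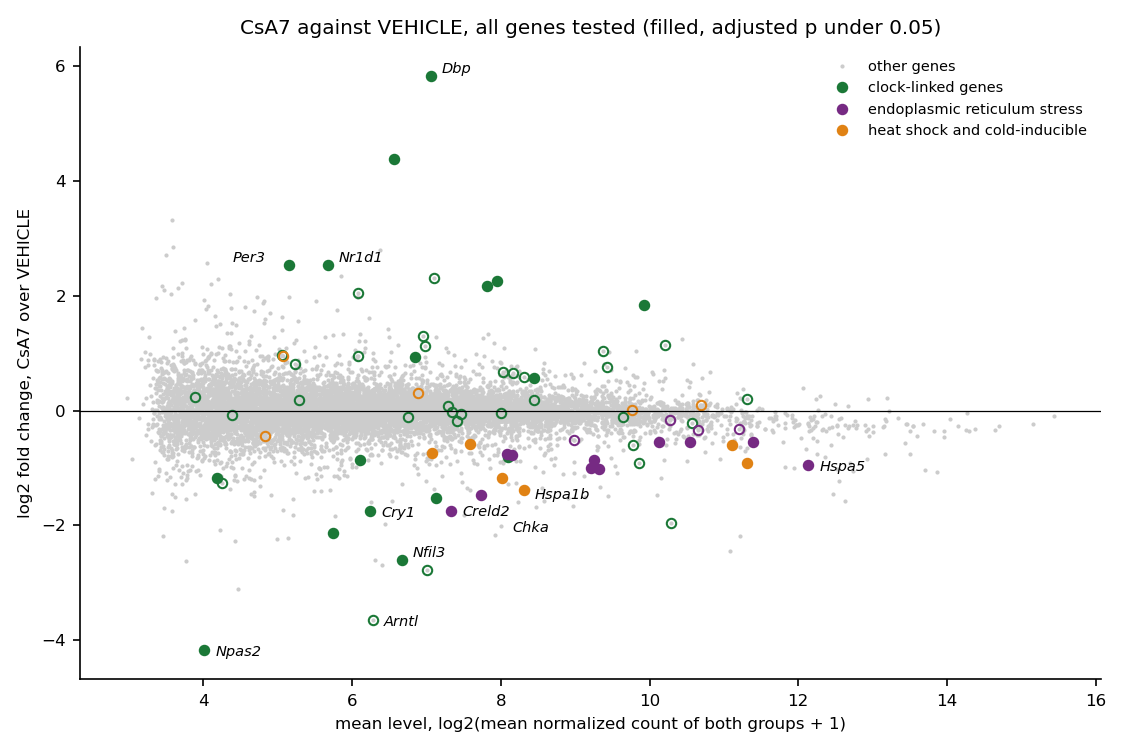
Fold change of each of the 10697 genes (vertical axis, log2 CsA7 over VEHICLE) against its mean level in the 8 livers (horizontal axis, log2). Filled coloured points are called genes of 3 lists and open ones are members that were not called; clock-linked genes reach from -4.18 (Npas2) to 5.83 (Dbp), and all 15 endoplasmic reticulum stress genes lie below 0.

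The largest fitted changes in both directions were those of 2 clock genes, Dbp (higher) and Npas2 (lower). Dbp passed the filter only through the CsA7 livers and Npas2 only through the VEHICLE livers, so both had to differ. Of 54 clock-linked genes, 49 were tested, and 9 were higher and 8 lower in CsA7, which is 34.7% against 2.57% of all genes. The 4 CsA7 values lay all above the VEHICLE values in 16 of the 49 (5.34% of all genes tested) and all below them in 12 (5.89%). Within the core clock, 3 of the 5 core activators were lower and 0 higher, both REV-ERB receptors were higher, and 3 of the 4 D-box factors were higher and 1 lower. Outside the clock-linked lists, 98 genes were higher and 160 lower of 10648. The labels give no hour of sampling for any group, so in these genes the drug and the time of day cannot be told apart. In other lists of genes with a daily rhythm, of 13 feeding and fasting genes limma called 0, 4 had an unadjusted p under 0.05, and edgeR and DESeq2 called 0 and 3, and of 11 glucocorticoid targets limma called 0, 3 had an unadjusted p under 0.05, and edgeR and DESeq2 called 0 and 2. The part of the clock in the other results was not tested.

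Among the activators, Npas2, a partner of BMAL1, was almost undetected after the drug, with 1.01, 2.82, 0 and 0 in the CsA7 livers, against 26.3, 28.7, 33.9 and 28.2 in the VEHICLE livers. All CsA7 livers lay below all VEHICLE livers (log2 fold change -4.18 ± 0.48, adjusted p = 0.000702). Arntl, which encodes BMAL1 itself, was at 22.3, 38.6, 3.07 and 2.29 in the CsA7 livers, against 117, 89.8, 163 and 176 in the VEHICLE livers. The groups did not overlap, but CsA7 livers differed among themselves, with CsA7 3 and 4 far below CsA7 1 and 2, and limma did not call the gene (log2 fold change -3.66 ± 0.88, adjusted p = 0.0931), while edgeR on the recovered reads did (adjusted p = 0.0147). Clock was lower, with 192, 293, 149 and 172 in the CsA7 livers, against 362, 312, 367 and 341 in the VEHICLE livers (log2 fold change -0.82 ± 0.18, adjusted p = 0.037). Rora, a nuclear receptor that activates Arntl, was at 771 ± 70.5 in CsA7 and 830.0 ± 76.9 in VEHICLE (SD, n = 4 each) with overlapping groups (log2 fold change -0.11 ± 0.09, 95% interval -0.31 to 0.09).

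The REV-ERB genes, whose products repress the activators, moved the other way. Nr1d1 was at 76.9, 76.2, 87.4 and 97.5 in the CsA7 livers, against 14.4, 17.6, 5.47 and 24.1 in the VEHICLE livers (log2 fold change 2.53 ± 0.35, adjusted p = 0.00451). Nr1d2 was at 384, 302, 483 and 467 in the CsA7 livers, against 88.5, 85.1, 63.5 and 101 in the VEHICLE livers (log2 fold change 2.26 ± 0.17, adjusted p = 8.82e-05). Every CsA7 liver was above every VEHICLE liver for both receptors, by 5.49-fold and 4.84-fold between the means.

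Of the 4 D-box factors, Dbp had the largest difference. Dbp was at 247, 89.3, 297 and 408 in the CsA7 livers, against 1.20, 6.48, 3.28 and 2.68 in the VEHICLE livers, a difference of 76.4-fold between the means (log2 fold change 5.83 ± 0.51, adjusted p = 0.000849). Within CsA7, liver 2 stood lowest for Dbp and highest for Arntl, Npas2 and Clock, so the 4 drug-treated livers were not alike in these genes. Tef was at 354, 235, 412 and 468 in the CsA7 livers, against 56.2, 96.3, 83.2 and 83.1 in the VEHICLE livers (log2 fold change 2.17 ± 0.22, adjusted p = 0.000976). Hlf, the third activator of this family, was higher by a smaller amount (416 ± 77.8 in CsA7 and 278 ± 30 in VEHICLE; log2 fold change 0.57 ± 0.14, adjusted p = 0.0495). Nfil3, which represses from the same D-box sites, was lower, with 19.2, 27.3, 36 and 28.9 in the CsA7 livers, against 221, 157, 130.2 and 184 in the VEHICLE livers (log2 fold change -2.60 ± 0.20, adjusted p = 8.82e-05).

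Of the 6 core repressors tested, Per3 was higher and Cry1 lower. Per3 was at 81, 23.5, 49.8 and 85.3 in the CsA7 livers, against 5.98, 5.55, 15.3 and 9.39 in the VEHICLE livers (log2 fold change 2.54 ± 0.42, adjusted p = 0.0136). Cry1 was at 25.3, 39.5, 30.7 and 39.6 in the CsA7 livers, against 138, 96.3, 112 and 115 in the VEHICLE livers (log2 fold change -1.75 ± 0.18, adjusted p = 0.000266). The other 4 did not pass the test: Per1 averaged 41.7 ± 6.97 in CsA7 and 23.1 ± 12 in VEHICLE, Per2 86.1 ± 17.3 in CsA7 and 46.5 ± 17.7 in VEHICLE, Cry2 47.5 ± 16.1 in CsA7 and 25.6 ± 3.54 in VEHICLE and Bhlhe40 382 ± 79.1 in CsA7 and 252 ± 39.7 in VEHICLE (adjusted p 0.146, 0.132, 0.105 and 0.0603). Ciart, a repressor of CLOCK and BMAL1, missed the filter because only 3 of its values reached 10 and was not tested. It was at 34.4, 6.58, 25.3 and 49.5 in the CsA7 livers, against 1.20, 0.925, 0 and 1.34 in the VEHICLE livers, without overlap. Bhlhe41 missed the filter as well and was at 28.3, 8.46, 16.9 and 16 in the CsA7 livers, against 4.79, 0, 8.76 and 1.34 in the VEHICLE livers.

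**Figure D2:**
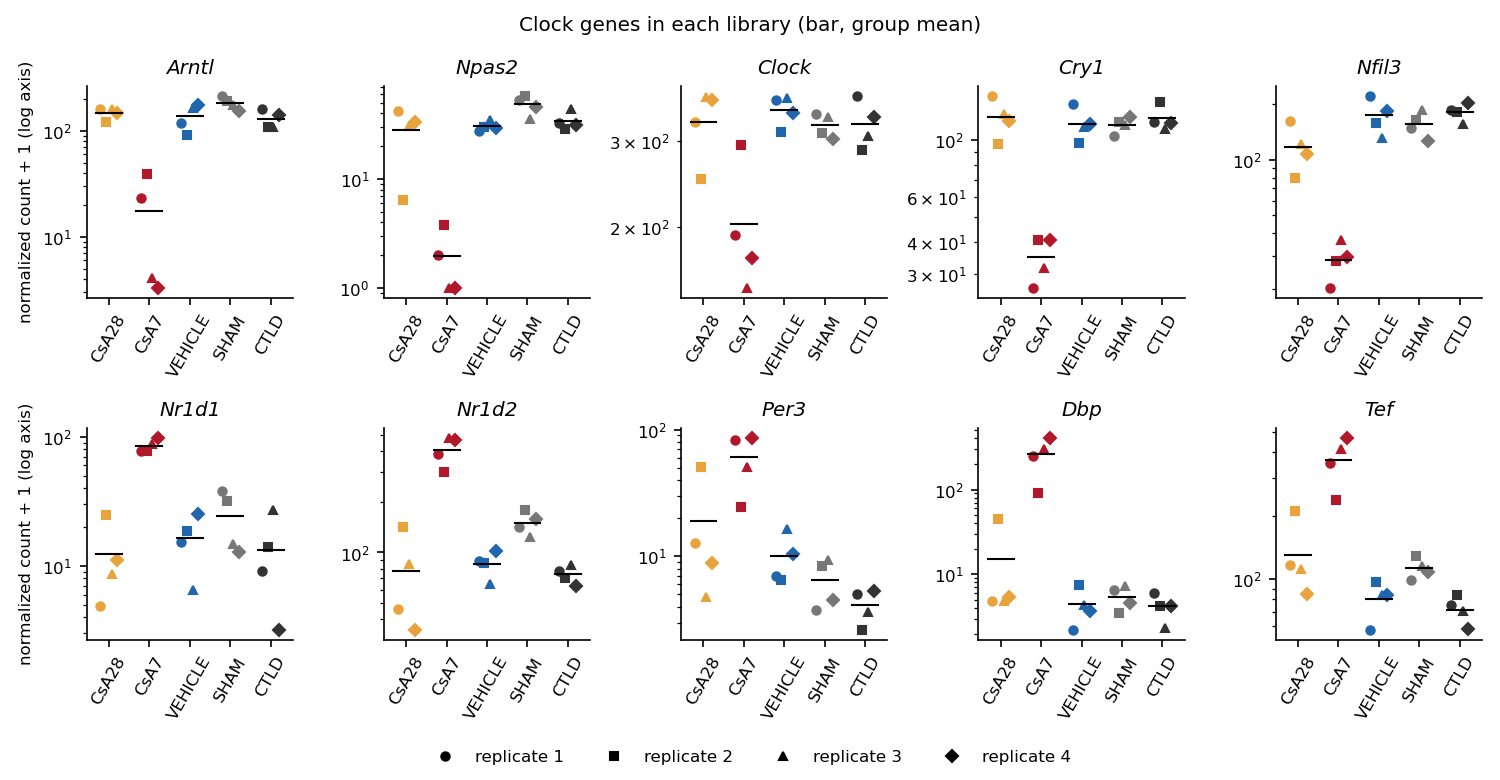
Normalized count + 1 (log axis) of 10 clock genes in every library of the 5 groups, with the group mean as a bar and 1 marker shape per replicate number. The 4 CsA7 livers lie below all VEHICLE, SHAM and CTLD livers for Arntl, Npas2, Cry1 and Nfil3 and above them for Dbp, Tef, Per3, Nr1d1 and Nr1d2.

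Of 25 outputs of the liver clock tested, limma called 3 higher and 3 lower, 24% against 2.57% of all genes. edgeR called 8 higher and 3 lower and DESeq2 16 in all, while limma without VEHICLE 1 and 2 called 1 higher and 1 lower. Rgs16, a regulator of G-protein signalling, was at 203, 61.1, 116 and 342 in the CsA7 livers, against 10.8, 7.40, 4.38 and 4.02 in the VEHICLE livers (log2 fold change 4.38 ± 0.53, adjusted p = 0.00555). Upp2, a uridine phosphorylase of the liver, was at 1659, 848, 1865 and 1703 in the CsA7 livers, against 301, 379, 427 and 563 in the VEHICLE livers (log2 fold change 1.83 ± 0.30, adjusted p = 0.0272). Klf10, a zinc-finger factor, averaged 151 ± 44.2 in CsA7 and 75.9 ± 9.46 in VEHICLE (log2 fold change 0.93 ± 0.21, adjusted p = 0.0458). On the lower side, Ppard, a nuclear receptor of fatty acid metabolism, was at 20.2, 14.1, 20.7 and 18.3 in the CsA7 livers, against 62.2, 75, 132 and 77.8 in the VEHICLE livers (log2 fold change -2.14 ± 0.23, adjusted p = 0.000411). Avpr1a, a vasopressin receptor, averaged 74.4 ± 27 in CsA7 and 203 ± 18.3 in VEHICLE (log2 fold change -1.52 ± 0.27, adjusted p = 0.0233). Lonrf3, a ring-finger protein, averaged 10.5 ± 4.08 in CsA7 and 23.9 ± 3.78 in VEHICLE (log2 fold change -1.17 ± 0.28, adjusted p = 0.0492). Of the 17 called clock-linked genes, 10 were called in every fit that left out 1 library: Npas2, Cry1, Per3, Nr1d1, Nr1d2, Dbp, Tef, Nfil3, Ppard and Rgs16. The other 7, among them Clock, Hlf, Avpr1a, Klf10, Lonrf3 and Upp2, missed the threshold without CsA7 4 and in at least 3 further such fits each. Of the 10, Dbp and Npas2 had passed the filter through 1 group only, so both had to differ.

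Promoters of these genes are shown because the 3 factor families named above act through short DNA elements. RefSeq's table for GRCm38.p6 gave 300-base promoters (250 bases before the start and 50 after) for 16 of the 19 core clock, REV-ERB and D-box genes. The E-box CACGTG, bound by CLOCK with BMAL1, stood in the promoters of 5 of the 16 (Bhlhe41, Ciart, Cry1, Per1 and Tef). Counted by promoter, it stood in 6 of their 21 (28.6%), against 7.15% of all 32851 promoters. The D-box TTATGTAA, bound by Dbp, Tef, Hlf and Nfil3, stood in 1 of the 21 promoters (Per3, 4.76%), against 0.938% of all. The ROR element (AGGTCA directly after AANT), which REV-ERBs bind, stood in 1 of the 21 (Arntl, 4.76%), against 0.219% of all. Both strands were searched, matches are a description only, and capitals mark them below: 2 D-boxes in Per3, 1 ROR element in Arntl and 3 E-boxes in Ciart.
Per3 (chr4:151044616-151044915, minus strand): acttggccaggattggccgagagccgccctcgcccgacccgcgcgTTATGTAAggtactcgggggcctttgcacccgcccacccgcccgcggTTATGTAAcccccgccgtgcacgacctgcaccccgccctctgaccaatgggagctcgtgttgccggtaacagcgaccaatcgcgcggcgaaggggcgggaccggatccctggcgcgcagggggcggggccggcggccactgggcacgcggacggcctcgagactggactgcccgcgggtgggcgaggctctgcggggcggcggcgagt
Arntl (chr7:113207261-113207560, plus strand): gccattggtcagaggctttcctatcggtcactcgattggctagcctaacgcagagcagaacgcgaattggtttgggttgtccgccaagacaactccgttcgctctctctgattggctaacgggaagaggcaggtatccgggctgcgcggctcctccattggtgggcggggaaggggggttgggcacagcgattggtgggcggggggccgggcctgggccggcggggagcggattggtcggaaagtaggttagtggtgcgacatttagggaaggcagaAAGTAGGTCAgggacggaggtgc
Ciart (chr3:95882179-95882478, minus strand): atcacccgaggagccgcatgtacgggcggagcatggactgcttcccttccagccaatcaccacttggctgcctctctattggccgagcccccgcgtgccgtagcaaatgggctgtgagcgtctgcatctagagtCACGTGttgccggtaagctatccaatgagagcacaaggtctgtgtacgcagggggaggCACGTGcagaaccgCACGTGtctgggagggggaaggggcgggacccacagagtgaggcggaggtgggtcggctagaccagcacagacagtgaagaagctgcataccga

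The clock levels of CsA7 livers were set beside 3 other groups of the series. CsA7 shares its 4 libraries with each of these comparisons, so they are not independent of the first. Against SHAM, 1354 genes were higher (12.7%) and 1484 lower (13.9%), together 26.6% of 10680, and 33 of 49 clock-linked genes were among them; scaled to equal total counts, 1875 were higher and 973 lower. Against CTLD, 432 genes were higher (4.04%) and 522 lower (4.88%), together 8.93% of 10688, and 28 of 48 clock-linked genes were among them; scaled to equal total counts, 1325 were higher and 269 lower, with the median of all genes at 0.16. Without CsA7 3, 259 and 327 genes were called against CTLD, without CsA7 4, 245 and 309, and without CTLD 3, 298 and 318. Dbp was at 247, 89.3, 297 and 408 in CsA7, against at most 6.31 in SHAM and at most 5.07 in CTLD. Arntl was at 22.3, 38.6, 3.07 and 2.29 in CsA7, against 152 to 215 in SHAM and 107 to 160.2 in CTLD, and limma called it in both comparisons (adjusted p 5.72e-06 and 0.00015). In these genes the CsA7 livers stood apart from livers of all 3 control groups.

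The CsA28 livers, which had received the same drug, differed from CsA7 in many of the clock genes described above. Between CsA28 and CsA7, 81 genes were higher (0.754%) and 59 lower (0.549%) at day 28, together 1.3% of 10742 genes, and 12 of 48 clock-linked genes were called; scaled to equal total counts, 56 were higher and 98 lower. Dbp was at 3.88, 44, 3.81 and 4.46 in CsA28, against 247, 89.3, 297 and 408 in CsA7 (log2 difference -4.71 ± 0.76, adjusted p = 0.0185). Arntl was at 162, 121, 159.8 and 146 in CsA28, against 22.3, 38.6, 3.07 and 2.29 in CsA7 (log2 difference 3.81 ± 0.74, adjusted p = 0.0443). Liver 2 of CsA28 stood apart, with Dbp at 44 and Npas2 at 5.37, between the other CsA28 livers and the CsA7 livers. Cry1, Nfil3, Ppard, Avpr1a and Lonrf3 were also higher in CsA28 than in CsA7, and Nr1d1, Nr1d2 and Tef lower. Without CsA28 2, 75 genes were higher and 67 lower and 13 clock-linked genes were called. Without CsA28 1, 3 or 4 or CsA7 3 or 4, both counts were lower by more than 1.5 times, without CsA7 1 the lower genes numbered 36, and the counts were lowest without CsA7 4, with 19 higher, 10 lower and 4 clock-linked. Between CsA28 and VEHICLE limma called 0 of 10770 genes, with 968 at an unadjusted p under 0.05.

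Chaperones of the endoplasmic reticulum were lower in CsA7. Of the 15 genes in this list, all tested, 11 were called lower and 0 higher (73.3% against 1.57% of all genes called lower), and all 15 had negative fold changes, with a median of -0.76 against -0.0035 for all genes. In 12 of the 15 every CsA7 liver was below every VEHICLE liver, against 5.89% of all genes tested. Hspa5 (BiP), the main chaperone of the compartment, was at 2905, 3561, 2681 and 3173 in the CsA7 livers, against 4849, 6383, 6372 and 6132 in the VEHICLE livers (log2 fold change -0.94 ± 0.11, adjusted p = 0.000725). Creld2, a protein induced by endoplasmic reticulum stress, had the largest change of the list, with 55.7, 94, 67.4 and 73.9 in the CsA7 livers, against 261, 336, 190.4 and 204 in the VEHICLE livers (log2 fold change -1.74 ± 0.20, adjusted p = 0.000849). Sdf2l1, a partner of the BiP co-chaperones, was at 119, 125, 86.6 and 113 in the CsA7 livers, against 240.5, 428, 294 and 289.6 in the VEHICLE livers (log2 fold change -1.47 ± 0.17, adjusted p = 0.000849).

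Further chaperones and folding enzymes of the list were lower as well, without overlap. Manf, a secreted cofactor of BiP, averaged 421 ± 57 in CsA7 and 855 ± 99.1 in VEHICLE (log2 fold change -1.02 ± 0.11, adjusted p = 0.00061). Hyou1, which exchanges the nucleotide of BiP, averaged 436 ± 77.6 in CsA7 and 784 ± 57.3 in VEHICLE (log2 fold change -0.86 ± 0.12, adjusted p = 0.00245). Hsp90b1 (GRP94), the HSP90 of this compartment, was at 2136, 2392, 2019 and 2198 in the CsA7 livers, against 2704, 3455, 3407 and 3207 in the VEHICLE livers (log2 fold change -0.54 ± 0.09, adjusted p = 0.00945). The co-chaperones Dnajb9, Dnajb11 and Dnajc3 had log2 fold changes of -0.99, -0.77 and -0.55 (adjusted p 0.0163, 0.0014 and 0.0266). The disulfide isomerases Pdia4 and Pdia6 had -0.76 and -0.55 (adjusted p 0.0161 and 0.00706).

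Of the 4 list members that were not called, Xbp1, the transcription factor that raises many of these genes, averaged 413 ± 54 in CsA7 and 599 ± 137 in VEHICLE (adjusted p = 0.13). Herpud1, a degradation factor of the compartment, averaged 2072 ± 107 in CsA7 and 2626 ± 596 in VEHICLE. The lectin chaperone Calr averaged 1410.0 ± 147 in CsA7 and 1799 ± 247 in VEHICLE, and its relative Canx averaged 1168 ± 30.3 in CsA7 and 1317 ± 66.6 in VEHICLE (adjusted p 0.108 and 0.238). Some genes of the same compartment that are not in the list were lower as well, but all were chosen by their values. The rule for named genes took Syvn1 because it was among the lowest called genes, and the others were chosen after their values were seen. They are therefore no separate support. Syvn1, the ubiquitin ligase that tags misfolded protein, was at 129.6, 186, 124 and 155 in the CsA7 livers, against 374, 518, 421 and 489 in the VEHICLE livers (log2 fold change -1.60 ± 0.14, adjusted p = 0.00014). Its partner Sel1l had a log2 fold change of -0.69 (adjusted p = 0.00238), Derl3, which passed the filter only through the VEHICLE livers, -2.63 (0.00852), Edem1 -0.49 (0.02), Pdia3 -0.40 (0.022) and Uggt1, the folding sensor, -0.42 (0.0371). Ddit3 (CHOP), the death-linked factor of this stress, was at 15.2, 40.4, 45.2 and 39.6 in the CsA7 livers, against 38.3, 59.2, 40.5 and 40.2 in the VEHICLE livers, with overlapping groups (log2 fold change -0.42 ± 0.31, adjusted p = 0.533). Of 5 tested genes of the integrated stress response 0 were called in limma, 2 had an unadjusted p under 0.05, and edgeR and DESeq2 called 1 and 2.

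Promoters of 13 of the 15 listed genes were in the RefSeq table. The ER stress element (CCAAT, 9 bases of any kind and then CCACG), through which ATF6 and XBP1 act and whose last letters CCACG can overlap an E-box, was searched after the fold changes had been seen. It stood in 7 of the 13 (Calr, Canx, Creld2, Dnajc3, Hsp90b1, Hspa5 and Pdia6) and in 0.119% of all 32851 promoters. Of the 7 genes, Calr and Canx were not called in CsA7. The promoters of the 3 with the element that are described above with values of each liver are shown with the matches in capitals, read on either strand, 1 in Hspa5, 1 in Creld2 and 2 in Hsp90b1.
Hspa5 (chr2:34771840-34772139, plus strand): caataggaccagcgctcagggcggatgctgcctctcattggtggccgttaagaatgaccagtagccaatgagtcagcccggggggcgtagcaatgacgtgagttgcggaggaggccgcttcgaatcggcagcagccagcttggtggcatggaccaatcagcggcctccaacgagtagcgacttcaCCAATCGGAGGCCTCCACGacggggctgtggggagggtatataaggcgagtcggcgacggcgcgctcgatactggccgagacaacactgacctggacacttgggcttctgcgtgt
Creld2 (chr15:88819396-88819695, plus strand): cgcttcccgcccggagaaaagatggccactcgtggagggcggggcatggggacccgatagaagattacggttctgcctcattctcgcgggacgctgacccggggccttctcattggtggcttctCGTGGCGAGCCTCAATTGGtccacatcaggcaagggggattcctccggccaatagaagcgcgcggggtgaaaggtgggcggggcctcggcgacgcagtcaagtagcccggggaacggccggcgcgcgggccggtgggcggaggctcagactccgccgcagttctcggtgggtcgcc
Hsp90b1 (chr10:86705395-86705694, minus strand): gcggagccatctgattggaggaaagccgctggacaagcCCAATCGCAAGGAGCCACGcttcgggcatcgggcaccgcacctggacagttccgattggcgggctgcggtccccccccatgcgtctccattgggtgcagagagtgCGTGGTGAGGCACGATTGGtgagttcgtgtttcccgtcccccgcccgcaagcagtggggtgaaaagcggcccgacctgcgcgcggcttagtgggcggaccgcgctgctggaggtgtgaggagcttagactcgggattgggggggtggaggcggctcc

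Heat shock genes of the cytosol were lower too. Of 11 tested genes in the heat shock and cold-inducible list, 6 were lower and 0 higher (54.5% against 1.57% of all genes called lower), with a median log2 fold change of -0.58. Hspa1b, the inducible HSP70, was at 149.8, 214, 169 and 164 in the CsA7 livers, against 416, 557, 412 and 444 in the VEHICLE livers (log2 fold change -1.39 ± 0.13, adjusted p = 0.000174). Hspa1a encodes a near-identical protein, so the split of reads between the pair is uncertain; it averaged 23.3 ± 9.39 in CsA7 and 31.4 ± 10.2 in VEHICLE and was not called. Hsph1, an HSP110 that helps HSP70, was at 135, 159.8, 188 and 148 in the CsA7 livers, against 352, 367, 393 and 312 in the VEHICLE livers (log2 fold change -1.18 ± 0.12, adjusted p = 0.000266). Hsp90aa1, the inducible HSP90 of the cytosol, was at 1724, 1874, 1859 and 1525 in the CsA7 livers, against 2872, 3385, 3961 and 3056 in the VEHICLE livers (log2 fold change -0.92 ± 0.11, adjusted p = 0.000709). Hspa8, the constitutive HSP70, Dnajb1 and Hspa4l had log2 fold changes of -0.60, -0.74 and -0.58 (adjusted p 0.00428, 0.0269 and 0.0377). The mitochondrial chaperonin Hspd1 averaged 1712 ± 75.4 in CsA7 and 1608 ± 101 in VEHICLE, and its lid Hspe1 averaged 871 ± 12.4 in CsA7 and 867 ± 52.1 in VEHICLE. Cirbp, a cold-inducible RNA-binding gene, averaged 42.8 ± 6.66 in CsA7 and 22.6 ± 9.35 in VEHICLE, and Rbm3, another, averaged 129.9 ± 11 in CsA7 and 105 ± 18.5 in VEHICLE (adjusted p 0.0667 and 0.256). Several heat shock and cold-inducible genes follow body temperature through the day, and neither temperature nor hour is in the labels.

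**Figure D3:**
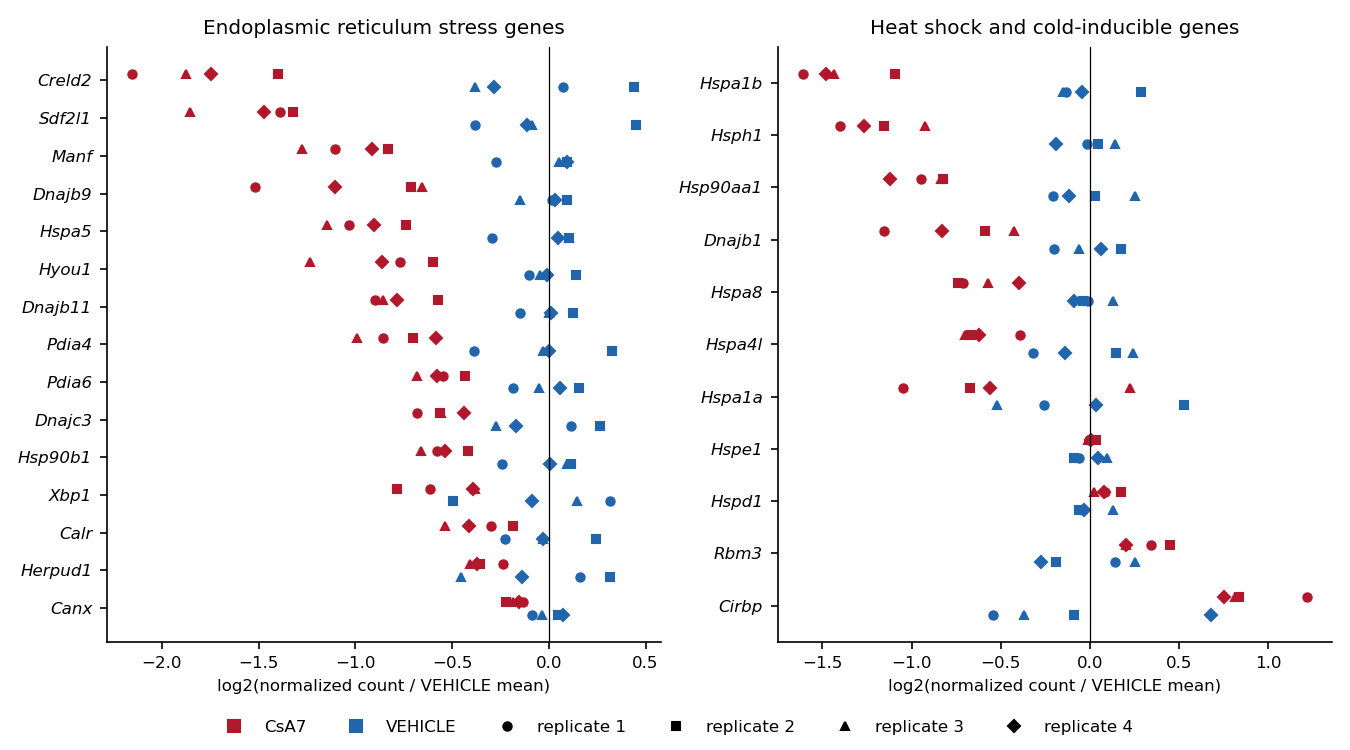
Each library's normalized count divided by the VEHICLE mean of the gene (log2, horizontal axis) for the 15 endoplasmic reticulum stress genes and the 11 heat shock and cold-inducible genes, with CsA7 drawn above VEHICLE in each row and 1 marker shape per replicate. All CsA7 livers lie left of all VEHICLE livers in 12 of the 15 rows of the first panel and in 6 of the 11 rows of the second. Of all genes tested, 5.89% were all below in this way.

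Most chaperone calls were made again without the VEHICLE livers with high Saa1. Without VEHICLE 1 and 2, 10 of the 15 endoplasmic reticulum genes were lower (1.22% of all genes) and the median was -0.77. Of the 11 first called, 9 were among these 10; Dnajb9 (adjusted p = 0.116) and Dnajc3 (0.102) were lost, and Xbp1 (0.0409) was gained. Of the 6 heat shock genes, 5 were called again, without Dnajb1 (0.0583). Scaling to equal total counts kept 10 of the 11, without Dnajc3, and 4 of the 6, without Dnajb1 and Hspa4l, and added Cirbp as higher. Leaving out single libraries ended the call of Pdia4 (without CsA7 1), of Dnajb9 (without CsA7 4 or VEHICLE 2) and of Dnajc3 (without any CsA7 liver or VEHICLE 1 or 2). Among the heat shock genes it ended the call of Dnajb1 (without CsA7 1 or 4 or VEHICLE 2, 3 or 4) and of Hspa4l (without CsA7 2, 3 or 4 or VEHICLE 2, 3 or 4). Of the genes outside the lists, Edem1 was not called without CsA7 3 or 4 or VEHICLE 2, Pdia3 without CsA7 1, 3 or 4 or VEHICLE 2 and Uggt1 without CsA7 1, 3 or 4 or VEHICLE 2 or 4.

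Against the other controls, 11 of the 15 endoplasmic reticulum genes were lower in CsA7 than in SHAM, where 13.9% of all genes were lower, and 12 of 15 were lower than in CTLD, where 4.88% were. Hspa5 was at 2681 to 3561 in CsA7, against 4539 to 7472 in SHAM and 5290.2 to 8898 in CTLD. Heat shock genes were lower in 3 of 11 and higher in 1 against SHAM and lower in 4 of 11 against CTLD. For Hspa1b the SHAM livers, at 141 to 245, overlapped the CsA7 livers, at 149.8 to 214. Between CsA28 and CsA7 none of the 15 and none of the 11 were called in limma, and the median differences were 0.26 and 0.34. Hspa5 was at 3823, 3247, 3326 and 7187 in CsA28, against 2905, 3561, 2681 and 3173 in CsA7 (log2 difference 0.44, 95% interval -0.06 to 0.94). Liver 4 of CsA28 stood apart from its group in these genes, with Hspa1b at 1654 and Dnajb1 at 2374; without it, still none of the 15 or of the 11 were called. Between CsA28 and VEHICLE the 15 endoplasmic reticulum genes had a median of -0.53, and none was called.

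Of 15 tested genes of bile acid synthesis limma called 1 lower and 0 higher (6.67% against 1.57% of all genes called lower). A further 5 had an unadjusted p under 0.05, all lower, edgeR and DESeq2 called 2 and 3, and 13 of the 15 fold changes were negative, against 9 with total-count scaling. The called gene was Cyp2c70, the rodent enzyme that makes muricholic acids, with 1843, 1548, 1756 and 1706 in the CsA7 livers, against 2444, 2293, 2276 and 2353 in the VEHICLE livers (log2 fold change -0.45 ± 0.08, adjusted p = 0.00899). Cyp7a1, the rate-limiting enzyme and also a clock-linked gene, was at 251, 156, 455 and 134 in the CsA7 livers, against 99.3, 210.1, 404 and 327 in the VEHICLE livers, with overlapping groups (log2 fold change -0.05 ± 0.57, 95% interval -1.42 to 1.32). Cyp8b1, the 12-alpha-hydroxylase, averaged 564 ± 209.5 in CsA7 and 827 ± 158 in VEHICLE (adjusted p = 0.356). Nr0b2 (SHP), which bile acids induce through their receptor FXR, averaged 86.5 ± 30.1 in CsA7 and 91.3 ± 18.9 in VEHICLE (adjusted p = 0.866). Klb, the co-receptor through which the gut hormone FGF15 lowers bile acid synthesis, was higher, with 69.8, 38.6, 53.6 and 54.8 in the CsA7 livers, against 20.3, 30.5, 30.6 and 21.5 in the VEHICLE livers (log2 fold change 1.04 ± 0.22, adjusted p = 0.0269). It was the 1 call among 10 tested bile acid receptors and partners (10% against 1.0% of all genes called higher). The median of that list was -0.04.

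The transporter calls included both subunits of the canalicular sterol pump. Abcg8 was at 177, 198, 207 and 251 in the CsA7 livers, against 110.1, 105, 71.1 and 107 in the VEHICLE livers (log2 fold change 1.09 ± 0.15, adjusted p = 0.00259). Abcg5, with which it exports cholesterol into bile, was at 86, 114, 129 and 161 in the CsA7 livers, against 65.8, 67.6, 42.7 and 61.7 in the VEHICLE livers (log2 fold change 1.02 ± 0.20, adjusted p = 0.0213). These were the 2 calls among 9 canalicular exporters, both higher (22.2% against 1.0% of all genes called higher), and Abcg5 was not called without CsA7 3 or CsA7 4. The bile salt export pump Abcb11, the transporter that cyclosporin A inhibits, averaged 850.1 ± 79 in CsA7 and 862 ± 43 in VEHICLE (log2 fold change -0.02 ± 0.09, 95% interval -0.21 to 0.16). Abcb4, which moves phospholipid into bile, averaged 1183 ± 174 in CsA7 and 1062 ± 111 in VEHICLE (log2 fold change 0.15 ± 0.11). Of 7 uptake transporters, Slco1a4 was higher and Slc22a7 lower (28.6% called, against 2.57% of all genes). Slco1a4, an organic anion carrier of a family of similar genes, was at 319.9, 273, 426 and 413 in the CsA7 livers, against 129, 152, 201 and 189 in the VEHICLE livers (log2 fold change 1.09 ± 0.17, adjusted p = 0.00884), and Slc22a7, another such carrier, averaged 16.1 ± 6.04 in CsA7 and 36.1 ± 8.34 in VEHICLE (log2 fold change -1.16 ± 0.28, adjusted p = 0.0492). The call of Slc22a7 was lost without CsA7 2, 3 or 4, without VEHICLE 1, 2 or 4 and without VEHICLE 1 and 2 together. The main bile acid carrier Slc10a1 averaged 1707 ± 371 in CsA7 and 1485 ± 96.1 in VEHICLE, and Slco1a1 1855 ± 323 in CsA7 and 1621 ± 213 in VEHICLE, neither called. Of 2 basolateral exporters tested, 0 were called in limma, edgeR or DESeq2 and 0 had an unadjusted p under 0.05; Abcc4 averaged 15.3 ± 6.51 in CsA7 and 9.37 ± 3.69 in VEHICLE.

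With the deposited scaling, no gene of the direct targets of the drug was called by limma, edgeR or DESeq2. Of 16 cyclophilin genes 0 were called in limma, edgeR or DESeq2, and 1 had an unadjusted p under 0.05. Ppia, the most abundant of the cyclophilins that bind the drug, was at 2976, 2706, 3165 and 2925 in the CsA7 livers, against 2918, 2856, 2719.8 and 3018 in the VEHICLE livers (log2 fold change 0.03 ± 0.08, 95% interval -0.14 to 0.20). Ppib, the cyclophilin of the endoplasmic reticulum, averaged 517 ± 58 in CsA7 and 578 ± 67 in VEHICLE (log2 fold change -0.16 ± 0.11). Of 7 calcineurin and NFAT genes 0 were called by any of the 3 tools and 1 had an unadjusted p under 0.05. Ppp3ca, a catalytic subunit of calcineurin, was called higher by limma with total-count scaling and after quantile normalization. Rcan1, a calcineurin inhibitor that NFAT induces, averaged 53.9 ± 11.8 in CsA7 and 81.8 ± 34.9 in VEHICLE (adjusted p = 0.539). Of 14 targets of the drug sensors CAR and PXR limma called 0 and 5 had an unadjusted p under 0.05, while edgeR called 0 and DESeq2 2. Cyp3a11, which metabolizes cyclosporin A in the mouse, averaged 6499 ± 486 in CsA7 and 7415 ± 784 in VEHICLE, and Cyp2b10 31.5 ± 15 in CsA7 and 22.8 ± 9.56 in VEHICLE (adjusted p 0.31 and 0.617).

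Of 15 lipogenesis genes 3 were higher and 0 lower (20% against 1.0% of all genes called higher), and 14 of the 15 fold changes were positive, with a median of 0.59. Acaca, the carboxylase that commits carbon to fatty acids, was at 308, 280.2, 342 and 373 in the CsA7 livers, against 199.8, 174, 215 and 145 in the VEHICLE livers (log2 fold change 0.83 ± 0.13, adjusted p = 0.00561). Elovl6, an elongase, was at 845, 664, 892 and 1393 in the CsA7 livers, against 456, 389, 491 and 461 in the VEHICLE livers (log2 fold change 1.03 ± 0.20, adjusted p = 0.0346). Fads2, a desaturase, averaged 1985 ± 590.5 in CsA7 and 1094 ± 37.6 in VEHICLE (log2 fold change 0.82 ± 0.16, adjusted p = 0.0305). Of these 3, only Acaca was called in every fit that left out 1 library and again without VEHICLE 1 and 2, and with total-count scaling 7 of the 15 were higher. Of 22 cholesterol synthesis genes 1 was called, Nsdhl, which was higher (4.55% against 1.0% of all genes called higher). Nsdhl averaged 442 ± 68.7 in CsA7 and 305 ± 37.9 in VEHICLE (adjusted p = 0.0419). Of 20 genes of fatty acid oxidation 0 were called in limma, 3 had an unadjusted p under 0.05, and edgeR and DESeq2 called 0 and 1. Ppara, their nuclear receptor, which is not in that list and was chosen after its values were seen, was higher, with 620.5, 561, 611 and 601 in the CsA7 livers, against 395, 401, 375 and 437 in the VEHICLE livers (log2 fold change 0.57 ± 0.08, adjusted p = 0.00245). Slc2a2, the glucose carrier of hepatocytes, also chosen after its values were seen, was at 2382, 1991, 2026 and 2446 in the CsA7 livers, against 1195, 1373, 1418 and 1565 in the VEHICLE livers (log2 fold change 0.67 ± 0.10, adjusted p = 0.00404).

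**Figure D4:**
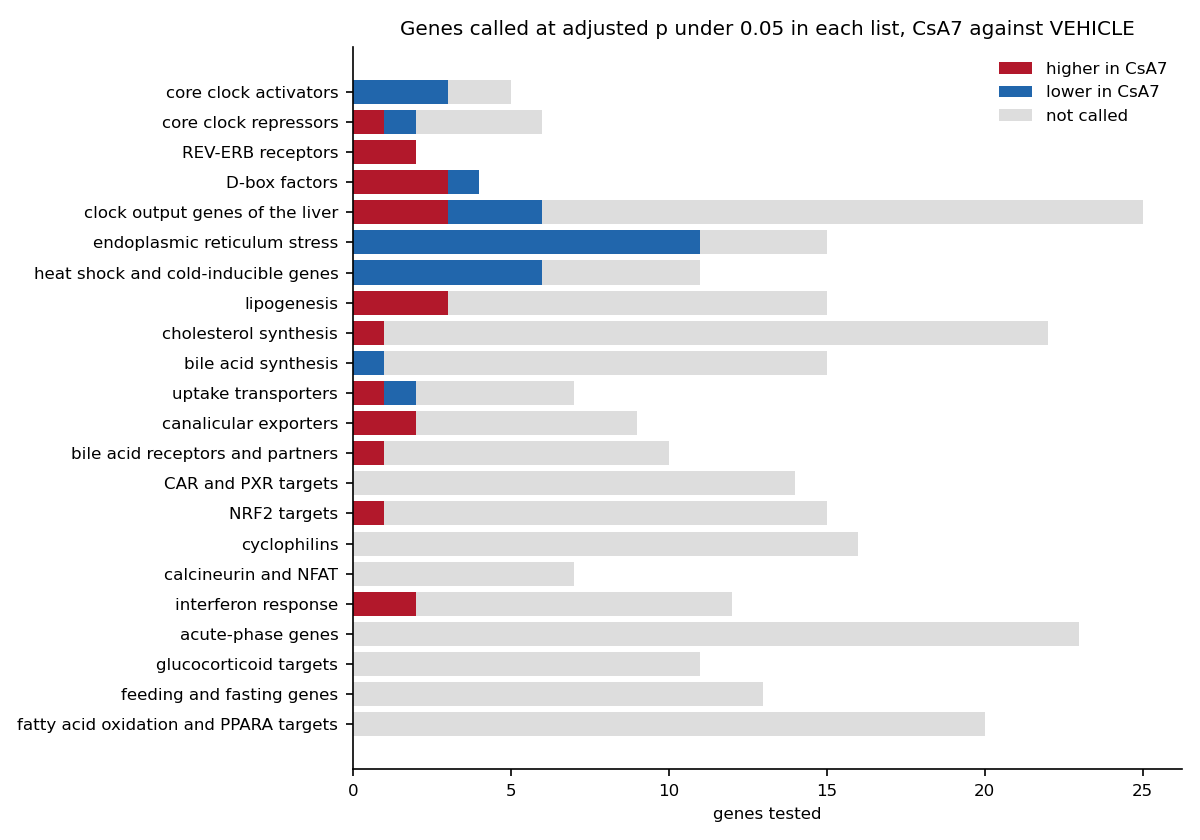
Number of genes tested in each of 22 gene lists (bar length), divided into genes called higher in CsA7, called lower in CsA7 and not called. The endoplasmic reticulum stress list has 11 of 15 genes called lower, and the cyclophilin, calcineurin and acute-phase lists have 0 called in limma with the deposited scaling.

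Interferon-response genes were summed at 1047 to 1859 in CsA7 and 838 to 1012 in VEHICLE, without overlap. Of the 12 tested, limma called 2 higher and 0 lower (16.7% against 1.0% of all genes called higher). An unadjusted p under 0.05 was found in 8, 7 higher and 1 lower, and edgeR and DESeq2 called 2 and 6. Against SHAM limma called 2 of 13 higher, and against CTLD 0 of 13. Usp18, which limits interferon signalling, was at 25.3, 40.4, 72 and 30.5 in the CsA7 livers, against 15.6, 15.7, 10.9 and 8.05 in the VEHICLE livers (log2 fold change 1.60 ± 0.32, adjusted p = 0.0233). Ifit3, an antiviral effector, was at 37.5, 66.8, 77.4 and 29.7 in the CsA7 livers, against 19.1, 19.4, 16.4 and 28.2 in the VEHICLE livers (log2 fold change 1.23 ± 0.29, adjusted p = 0.0492). The call of Ifit3 was lost in 7 and that of Usp18 in 5 of the 8 fits that left out 1 library. The inflammatory cytokine Il1b was lower, with 11.1, 14.1, 10.7 and 11.4 in the CsA7 livers, against 49.1, 42.6, 42.7 and 16.1 in the VEHICLE livers (log2 fold change -1.48 ± 0.32, adjusted p = 0.0294), and was not called without VEHICLE 1 and 2 (adjusted p = 0.152). Sox9, which marks bile duct cells, averaged 91.4 ± 19.1 in CsA7 and 204 ± 55.3 in VEHICLE (log2 fold change -1.13 ± 0.21, adjusted p = 0.022), and summed cholangiocyte markers overlapped at 211 to 312 in CsA7 and 311 to 516 in VEHICLE. Lrat, which stores retinol in stellate cells, averaged 97.7 ± 16.9 in CsA7 and 44.3 ± 20.4 in VEHICLE (log2 fold change 1.21 ± 0.26, adjusted p = 0.0377), and summed stellate and fibroblast markers were at 1508 to 2199 in CsA7 and 1277 to 1687 in VEHICLE. Whether the share of these cells bears on the 2 genes was not tested. Gstm2, a glutathione transferase of a family of similar genes, averaged 209 ± 27.4 in CsA7 and 122 ± 23.4 in VEHICLE (log2 fold change 0.78 ± 0.15, adjusted p = 0.0174). It was the 1 call among 15 NRF2 targets (6.67% against 1.0% of all genes called higher). Nqo1 averaged 18.1 ± 5.67 in CsA7 and 9.63 ± 1.64 in VEHICLE (adjusted p = 0.174). Hba-a1, a globin with a near-identical copy, averaged 602 ± 108 in CsA7 and 398 ± 47.6 in VEHICLE (log2 fold change 0.59 ± 0.13, adjusted p = 0.0362), and Gldc, which breaks down glycine, 263 ± 55 in CsA7 and 399 ± 36.1 in VEHICLE (log2 fold change -0.62 ± 0.14, adjusted p = 0.0371). Il1b was the 1 call of 10 cytokine, chemokine and adhesion genes, Sox9 of 3 cholangiocyte markers and Gldc of 17 amino acid genes. These shares were 10%, 33.3% and 5.88%, against 1.57% of all genes called lower. Lrat was the 1 call of 10 stellate and fibroblast markers and Hba-a1 of 6 red cell and platelet genes. Here the shares were 10% and 16.7%, against 1.0% of all genes called higher.

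The highest called genes outside these lists, among genes with no overlap of the 8 values and an average of at least 50 in the group where they are higher, began with Lipg. This endothelial lipase was at 58.7, 41.4, 57.5 and 64.7 in the CsA7 livers, against 14.4, 10.2, 15.3 and 13.4 in the VEHICLE livers (log2 fold change 1.98 ± 0.21, adjusted p = 0.000398). Ppargc1b, a coactivator of mitochondrial and lipid genes, was at 97.2, 44.2, 55.2 and 86.1 in the CsA7 livers, against 8.37, 28.7, 20.8 and 17.4 in the VEHICLE livers (log2 fold change 1.90 ± 0.36, adjusted p = 0.0251). Wipf3, an actin regulator, was at 79, 83.7, 82.8 and 86.1 in the CsA7 livers, against 29.9, 36.1, 29.6 and 33.5 in the VEHICLE livers (log2 fold change 1.34 ± 0.14, adjusted p = 0.000336). The 4 CsA7 values of Wipf3 lay close together, between 79.0 and 86.1. Fnip2, a partner of folliculin, had a log2 fold change of 1.33, Eepd1 1.29, Ank3, a membrane anchor, 1.28, Syt1, a vesicle protein, 1.14 and Rdh9, a retinol dehydrogenase, 1.08. Wipf3, Fnip2, Syt1 and Slco1a4 were lower in CsA28 than in CsA7, with log2 differences (CsA28 minus CsA7) of -1.16, -1.13, -1.40 and -0.85 (adjusted p 0.000744, 0.00885, 0.00558 and 0.0342), whereas Lipg and Ank3 were not called between the days (adjusted p 0.192 and 0.141).

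Among the lowest called genes, Fam222a was at 9.11, 9.40, 16.1 and 10.7 in the CsA7 livers, against 53.8, 58.3, 37.2 and 77.8 in the VEHICLE livers (log2 fold change -2.22 ± 0.26, adjusted p = 0.000709). Chka, the choline kinase that starts phosphatidylcholine synthesis, was at 88.1, 162, 93.5 and 70.1 in the CsA7 livers, against 321, 320.2, 513 and 484 in the VEHICLE livers (log2 fold change -2.01 ± 0.27, adjusted p = 0.00899). Hist1h1c, a linker histone, was at 188, 201, 153 and 131 in the CsA7 livers, against 429, 635, 524 and 569 in the VEHICLE livers (log2 fold change -1.68 ± 0.15, adjusted p = 0.000195). Pnrc1, a coregulator of nuclear receptors, was at 182, 211, 163 and 207 in the CsA7 livers, against 707, 604, 455 and 538 in the VEHICLE livers (log2 fold change -1.58 ± 0.13, adjusted p = 9.8e-05). Clpx, a mitochondrial protease subunit, Lgalsl, a galectin-like gene, Id3, an inhibitor of helix-loop-helix factors, and Wsb1, a ubiquitin ligase adaptor, had log2 fold changes of -1.66, -1.59, -1.52 and -1.39 (adjusted p 0.0136, 0.00609, 0.0397 and 0.023). As for Arntl, Npas2 and Clock, but not for Nfil3 or Ppard, CsA7 2 was the highest of its group for Clpx. It was at 250.0, 386, 180.1 and 175 in the CsA7 livers, against 779, 705, 674 and 838 in the VEHICLE livers. Fam222a, Chka, Hist1h1c, Clpx, Lgalsl and Pnrc1 were all higher in CsA28 than in CsA7, and Chka was at 461, 348, 513 and 1087 in CsA28.

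The high Saa1 of VEHICLE 1 and 2 was shared by other acute-phase genes. Saa2 was at 101, 159.8, 235 and 92.2 in the CsA7 livers, against 10084, 6509, 64.6 and 73.8 in the VEHICLE livers, and Saa3 at 19.2, 34.8, 35.3 and 28.2 in the CsA7 livers, against 1458, 295, 19.7 and 33.5 in the VEHICLE livers. Saa1 and Saa2 are near-identical, so reads may be split between them. Orm2, an acute-phase glycoprotein, was at 112, 101, 88.9 and 109 in the CsA7 livers, against 1272, 793, 88.7 and 55 in the VEHICLE livers, and Lcn2, an iron-trapping protein that missed the filter, at 5.06, 4.70, 6.90 and 1.52 in the CsA7 livers, against 851, 315, 4.38 and 0 in the VEHICLE livers. In each of these genes VEHICLE 1 and 2 were far above every other liver of both groups. Of 23 acute-phase genes limma called 0, 5 had an unadjusted p under 0.05, edgeR called 0 and DESeq2 5; the median was -0.65 with all 4 VEHICLE livers and -0.04 without VEHICLE 1 and 2. Hamp, the iron hormone, averaged 1967 ± 771 in CsA7 and 3039.5 ± 457 in VEHICLE (adjusted p = 0.285), and Fkbp5, a glucocorticoid target, 74.2 ± 22.3 in CsA7 and 103 ± 74.4 in VEHICLE (adjusted p = 0.843).

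**Figure D5:**
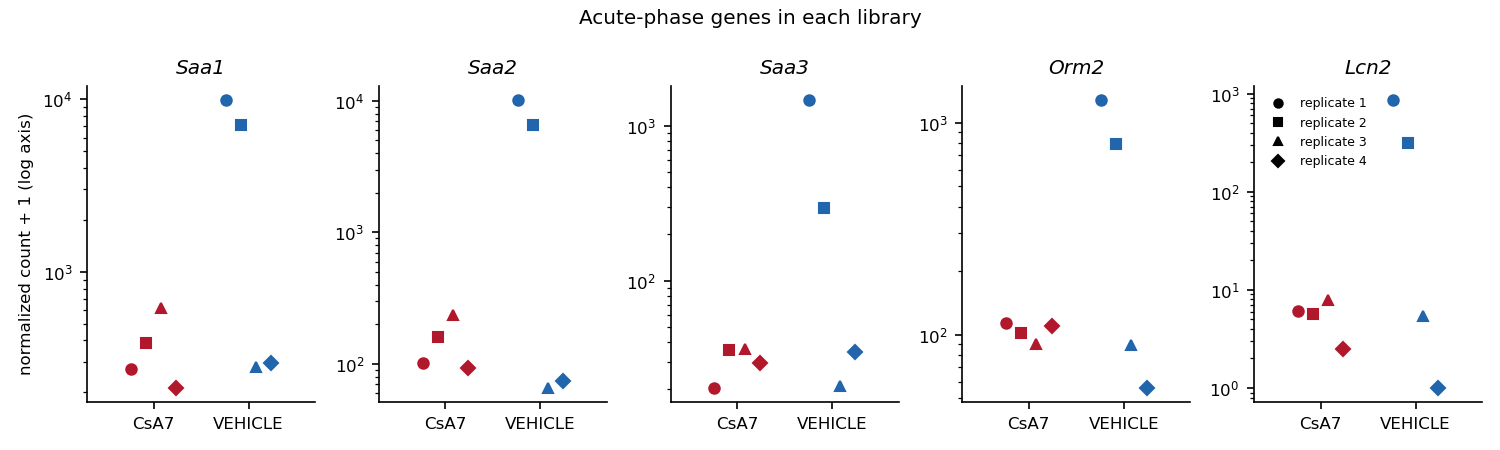
Normalized count + 1 (log axis) of 5 acute-phase genes in each CsA7 and VEHICLE liver, with 1 marker shape per replicate. VEHICLE 1 and 2 lie above all other livers, with Saa1 at 9848 and 7126, against 211 to 619 in the CsA7 livers.

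Leaving VEHICLE 1 and 2 out changed which genes were called more than how many. With 4 CsA7 and 2 VEHICLE livers, 115 genes were higher (1.08%) and 131 lower (1.22%). Of the 275 genes first called, 135 were called again, 56 higher and 79 lower, and all 275 kept the sign of their fold change. In 270 of the 275 the 2 groups did not overlap, so leaving livers out could not change the sign. A further 111 genes were called only without VEHICLE 1 and 2. Of the clock-linked genes 10 were called, 8 of which were among the first 17. Nr1d1 (adjusted p = 0.0534), Per3 (0.116) and Rgs16 (0.0503) missed the threshold, with log2 fold changes of 2.74, 2.07 and 4.85. The calls of Clock, Hlf, Avpr1a, Klf10, Lonrf3 and Upp2 were lost as well (adjusted p 0.0753 to 0.215). Outside the clock and chaperone lists, those of Sox9 (0.0534), Klb (0.055), Pdia3 (0.0572), Hba-a1 (0.0623), Derl3 (0.0672), Rdh9 (0.0692), Nsdhl (0.0786), Id3 (0.0832), Gldc (0.0846), Edem1 (0.0854), Clpx (0.102), Uggt1 (0.104), Lrat (0.135) and Ifit3 (0.193) were also lost. In all, 46 of the 76 named genes called by limma were called again, and 42 were called in each of the 8 fits that left out 1 library. Of the genes not yet given with such losses, Gstm2 was not called without CsA7 4, Sox9 without CsA7 1 or 3 or VEHICLE 2, Klb without CsA7 1, 3 or 4 or VEHICLE 4 and Wsb1 without CsA7 1, 3 or 4 or VEHICLE 3. Eepd1, Gldc, Ppargc1b and Rdh9 were lost in 5 of the 8 fits, Id3, Il1b, Lrat and Nsdhl in 6 and Hba-a1 in 7. Per1 was called once VEHICLE 1 and 2 were left out, with a log2 fold change of 1.63 ± 0.24 (adjusted p = 0.0045); its VEHICLE values were 33.5, 33.3, 12 and 13.4, higher in the 2 livers left out. Dbp (5.85), Npas2 (-4.26), Nfil3 (-2.46) and Hspa5 (-1.03) remained called, but Dbp and Npas2 had passed the filter through 1 group only and had to differ.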

How the data were processed

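The submitters' processing notes name genome build GRCm39 and, with no role or order, DESeq2, RSEM 1.3.1, STAR 2.7.9a, Trim Galore and UMI-tools 1.1.1. For the annotation, and for whether counting used strand, the sources used here give nothing. As their values show, the deposited signal values are counts per gene over a single scaling factor for each library. Within 0.001 read, 100% of the values in the 8 libraries were whole multiples of 1 step, so whole reads were recovered from them. They numbered 2431684 to 3770267 per library, which sets the precision of each value. Intervals cover the spread between livers. Libraries whose read counts differ by no more than sampling noise were looked for and not found. Symbols came from GENCODE M21 (GRCm38), which matched 29121 of 29546 IDs; 425 had none and 57 IDs with a duplicated symbol were kept as IDs.

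limma 3.58.1 (R 4.3.3, trend and robust options) was fitted to log2(normalized count + 1) of the 8 libraries, 2-sided, with p-values adjusted over all genes tested, and a gene was called under 0.05. CsA28 was compared with CsA7 and VEHICLE in a fit of these 3 groups, and CsA7 with SHAM and CTLD in a fit of all 36 libraries. edgeR 4.0.16 and DESeq2 1.42.0 on the recovered reads, other filters, pseudocounts and scalings, replicate blocks and fits with libraries left out were alternatives. On simulated data for CsA7 against VEHICLE over 10697 genes, limma recovered 64% of genes changed 2-fold and 94% changed 4-fold, and 8 of its 166 calls had not been changed. The simulated libraries were drawn independently around the mean of each gene. Differences shared by some livers, as in VEHICLE 1 and 2, were not simulated, so these rates may not hold for the real livers.

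The comparison, the gene lists and the rule for named genes were chosen with earlier results of these data known. The rule took the core clock genes, called members of the other clock lists, 23 anchor genes, up to 12 highest and 12 lowest called genes outside the clock, predicted genes left out, and up to 4 members per list. Equal replicate numbers, from the sample descriptions, did not mark pairs: residual correlations were -0.13 to 0.06 between CsA7 and VEHICLE. Results for 2 of the named genes are not reported here.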

Additional observations from a re-analysis of the deposited data

Results flagged for a closer look

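The change after 7 days of the drug differed from that after 28 days in 23 of the named genes reported here, by limma's test of CsA28 against CsA7 with p-values adjusted over 10742 genes. The VEHICLE livers are shared by both days and drop out of this difference. Over all genes, 140 of 10742 (1.3%) were called. Many of the named genes were chosen because the same CsA7 livers differed from VEHICLE. That choice favours a difference between CsA28 and CsA7, so the count of 23 cannot be set against the share of all genes. On the log2 scale, CsA28 minus CsA7, the higher genes at day 28 were Arntl (3.81), Cry1 (1.83), Nfil3 (2.01), Avpr1a (1.25), Lonrf3 (1.45), Ppard (2.29), Fam222a (2.07), Chka (2.46), Hist1h1c (1.38), Clpx (1.37), Lgalsl (1.52) and Pnrc1 (1.12). The lower genes were Nr1d1 (-3.04), Nr1d2 (-2.60), Dbp (-4.71), Tef (-1.54), Wipf3 (-1.16), Fnip2 (-1.13), Syt1 (-1.40), Slco1a4 (-0.85), Usp18 (-2.04), Ppara (-0.44) and Slc2a2 (-0.53). Adjusted p-values ran from 0.000117 (Cry1) to 0.0443 (Arntl). Clock-linked genes made up 10 of the 23. Usp18, the protease that limits interferon signalling, was at 11.7, 7.51, 5.71 and 11.2 in CsA28, against 25.3, 40.4, 72 and 30.5 in CsA7 and 15.6, 15.7, 10.9 and 8.05 in VEHICLE.

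In 8 of 232 groups of 4 values examined, 1 liver lay far from the other 3, by a gap above the 95% critical value of Dixon's test for 4 values, which chance gives in about 1 of 20 groups. In VEHICLE, liver 1 was lowest for Hspa5 (4849, next 6132) and Manf (707, next 888), liver 3 was lowest for Abcg8 (71.1, next 105) and highest for Hspd1 (1758, next 1570.2), liver 2 was highest for Ddit3 (59.2, next 40.5) and liver 4 for Slc10a1 (1628, next 1447). In CsA7, liver 2 was highest for Pdia3 (713, next 677) and liver 1 for Cirbp (52.6, next 40.4). VEHICLE 1 lies toward the CsA7 livers for Hspa5 and Manf, and both genes were called with and without it.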

How the results depend on the processing

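None of the 76 named genes called in limma changed sign in any alternative. Of the 37 not called, 12 did in at least 1, among them Saa1, Saa2, Saa3 and Orm2 without VEHICLE 1 and 2, and Rora, Abcb11 and Cyp7a1 with total-count scaling. Where the 2 groups do not overlap, as in 270 of all 275 called genes, leaving libraries out cannot change the sign. The contrast between called and uncalled genes thus partly follows from how they were chosen. As deposited, 107 genes were called higher and 168 lower, 17 clock-linked and 258 outside the clock lists. Without a filter there were 201 higher, 262 lower and 445 outside the clock; with total-count scaling 372, 91 and 445; with DESeq2 220, 288 and 478, with 30 clock-linked; in the fit of all 36 libraries 237, 272 and 483, with 26 clock-linked and 2 heat shock genes lower; and in limma without its trend and robust options 44, 62 and 94, with 6 endoplasmic reticulum genes lower. Clock-linked calls numbered 11 with at least 10 in all 8 libraries and 10 without VEHICLE 1 and 2. The pseudocounts, TMM scaling, quantile normalization, edgeR and the filter on 36 libraries kept each of these counts within 1.5 times. For the 2 lower lists the cause was not tested.

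With 1 library left out, 41 to 100 genes were higher (107 with all) and 64 to 155 lower (168), of which 10 to 24 were clock-linked (17), 95 to 244 outside the clock (258), 9 to 11 endoplasmic reticulum (11) and 4 to 6 heat shock (6). Of the named genes, 11 (without CsA7 2) to 30 (without CsA7 4) lost their call. CsA28 against CsA7 gave 29 to 152 calls (140), CsA7 against SHAM 2177 to 2606 (2838) and CsA7 against CTLD 554 to 1052 (954).

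Replicate numbers did not mark pairs. With them as a block, 89 genes were higher and 128 lower, and with the numbers of the titles, over 3 pairs, 83 and 114. CsA28 against CsA7 gave 47 calls with the block and 341 in the fit of all 36 libraries. CsA7 against CTLD gave 601 with the block and 1594 with total-count scaling. Genes with few reads, such as Npas2 in CsA7, have imprecise fold changes at this depth. The causes of these shifts were not tested.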
